A study of Mus musculus with 159 samples.

Results

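H2-Ea encodes the alpha chain of the mouse MHC class II molecule E. Among 159 mammary tumors, H2-Ea was present at a high level in some and at a lower level in the others. In most of the latter it lay near the background of the array, and the comparison here is between these groups. Tumors with a deposited log2 value of H2-Ea above 8.0 were taken as expressing, which gave 76 tumors (47.8%, exact 95% binomial interval 39.8% to 55.9%), and the 83 tumors at or below 8.0 (52.2%) as non-expressing. The groups were thus chosen by a measured value, that of H2-Ea, and the difference in H2-Ea between the groups was not tested.

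All 159 tumors came from untreated female mice, 1 tumor and 1 array per animal, harvested at about 100 days of age. The mice were the progeny of Diversity Outbred animals (DO), an outbred population descended from several inbred founder strains, and of FVB/NJ mice that carry the polyoma middle T antigen (PyMT), a viral oncogene, under the MMTV promoter, which is active in mammary epithelium. Both groups therefore share the oncogene and 1 set of FVB/NJ chromosomes, and each animal received a different set from its DO parent. GEO's labels put every tumor in a single group and give no genotype. RNA was extracted from whole tumors, so fewer cells of a type and less RNA per cell cannot be told apart.

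MHC class II molecules sit on antigen-presenting cells such as dendritic cells, macrophages and B cells and show peptides to CD4 T cells. The mouse has a pair of them, A (chains H2-Aa and H2-Ab1) and E (chains H2-Ea and H2-Eb1), encoded next to each other in the H2 region of chromosome 17. Several common H2 haplotypes carry an H2-Ea gene that yields no alpha chain, and mice with only such haplotypes have no E molecule on their cells. Class II genes share promoter elements called the X and Y boxes, and the coactivator Ciita switches them on together.

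On GRCm38.p6 H2-Ea lies at chr17:34341952-34344645, and RefSeq annotates it as a transcribed pseudogene in this reference, which is the C57BL/6J strain. RefSeq promoter windows (250 bases before to 50 after the start) were at hand for 5 class II genes, H2-Aa, H2-Eb1, H2-Eb2, H2-Oa and H2-DMa. The 8 letters CTGATTGG of the Y box, searched on both strands, were found in 4 of the 5 and in 4.1% of 32851 windows of the genome. The longest run that H2-Eb1 and H2-Eb2 share before it, the 11 letters AGCAACTGATG of their X box, was found in those 2 genes and in 0.0244% of all windows, and in both it began 30 bases before the Y box, without overlap. The stretches of 72 bases around the Y box are printed because these genes are set beside H2-Ea below; capitals mark the Y box and, where present, the X box run. The stretch of H2-Aa is chr17:34287855-34287926 on the minus strand, that of H2-Eb1 chr17:34305753-34305824, that of H2-Eb2 chr17:34325520-34325591 and that of H2-Oa chr17:34092281-34092352, all 3 on the plus strand.
H2-Aa: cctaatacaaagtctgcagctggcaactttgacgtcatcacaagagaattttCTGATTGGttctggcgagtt
H2-Eb1: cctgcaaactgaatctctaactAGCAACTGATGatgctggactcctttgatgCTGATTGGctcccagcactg
H2-Eb2: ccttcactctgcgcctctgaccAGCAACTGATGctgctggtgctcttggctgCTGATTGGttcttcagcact
H2-Oa: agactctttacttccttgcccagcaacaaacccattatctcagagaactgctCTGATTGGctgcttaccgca

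In the expressing tumors the deposited H2-Ea value was 8.42 at the lowest, 10.27 at the median and 11.88 at the highest (SD 0.79, n = 76), against 5.39, 6.09 and 7.98 in the non-expressing tumors (SD 0.50, n = 83). By construction the groups did not overlap. The values nearest the threshold were 8.42, 8.46 and 8.64 above it and 7.98, 7.93 and 7.74 at or below it. Of the 83 non-expressing tumors, 12 lay at or below the background level of 5.76, the 95th percentile of the means of 1220 olfactory, vomeronasal and taste receptor genes.

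The non-expressing group was not uniform. In all 9 tumors stood apart from the rest on a score of T cell or of B cell genes, 4 of them expressing and 5 non-expressing. Those 5 had H2-Ea between 6.73 and 7.98 (median 7.48), whereas the other 78 non-expressing tumors had a median of 6.08. Between 7 and 8 there were 5 tumors, and 4 of these stood apart on the lymphoid scores.

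**Figure D1:**
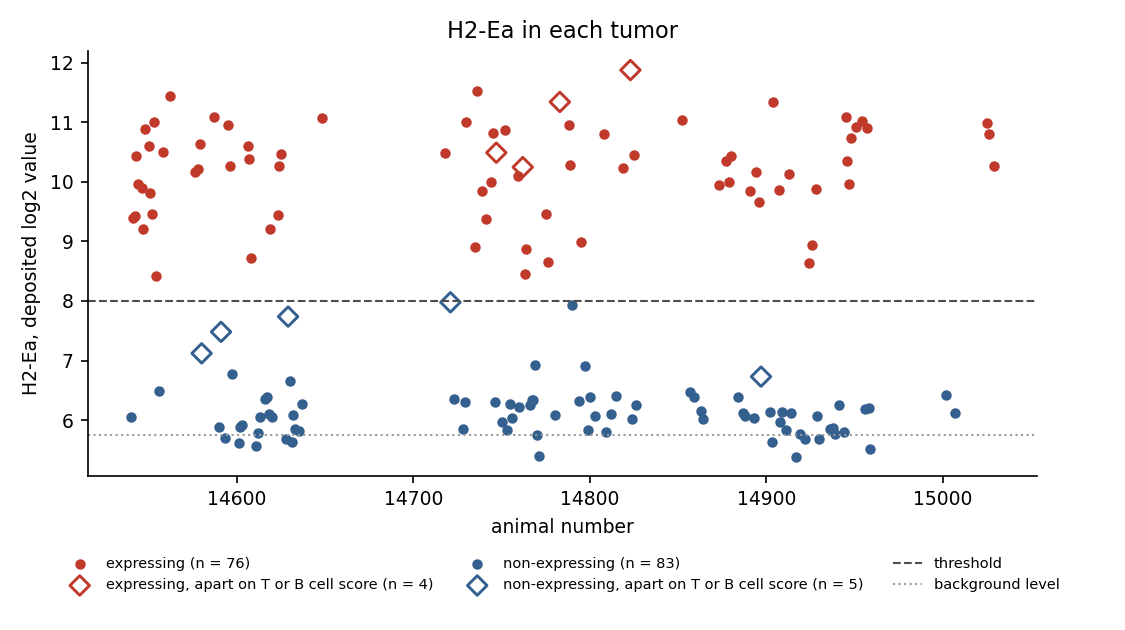
H2-Ea (deposited log2 value) in each of the 159 tumors against animal number; red circles are the 76 expressing and blue circles the 83 non-expressing tumors, diamonds are tumors apart on the T or B cell score, and the lines mark the threshold of 8.0 and the background level of 5.76. Non-expressing diamonds lie between 6.73 and 7.98, above most other non-expressing tumors.

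The share of expressing tumors differed along the animal numbers, whose meaning the labels do not give. Among animals 14540 to 14597, 20 of 27 tumors expressed H2-Ea (74.1%, exact 95% interval 53.7% to 88.9%), against 8 of 26 among animals 14601 to 14648 (30.8%, 14.3% to 51.8%). In the next 3 blocks of numbers the share was 48.8%, 42.9% and 40.6%, and in the last block 3 of 5 tumors expressed it. Differences between the groups are therefore also given within the 5 blocks that held at least 3 tumors of each group.

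To ask what else differed between expressing and non-expressing tumors, 18953 genes other than H2-Ea were compared by limma. Of these, 20 passed an adjusted p of 0.05 (limma, Benjamini-Hochberg), 0.106% of the genes tested: 4 were higher (0.0211%) and 16 lower (0.0844%) in expressing tumors. At an unadjusted p of 0.05 there were 1667 genes (8.8%). The median difference over all genes was 0.0003 and the median absolute difference 0.0281 on the log2 scale. All 20 genes overlapped between the groups.

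Of the 20 genes, 18 lie on chromosome 17, 4 of them higher and 14 lower. Within 0.5 Mb of H2-Ea 3 of 51 genes passed (5.88%), from 0.5 to 2 Mb 6 of 110 (5.45%), from 2 to 5 Mb 1 of 100 and from 5 to 10 Mb 3 of 170 (1.76%). Beyond 10 Mb on chromosome 17, 5 of 467 passed (1.07%), and on the other chromosomes 2 of 18030 (0.0111%). The share with an unadjusted p under 0.05 was 29.4% within 0.5 Mb, 30.9% from 0.5 to 2 Mb, 20% from 2 to 5 Mb, 25.3% from 5 to 10 Mb, 16.3% beyond 10 Mb and 8.2% on the other chromosomes. Genes of the region are inherited together, so these are not independent observations.

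**Figure D2:**
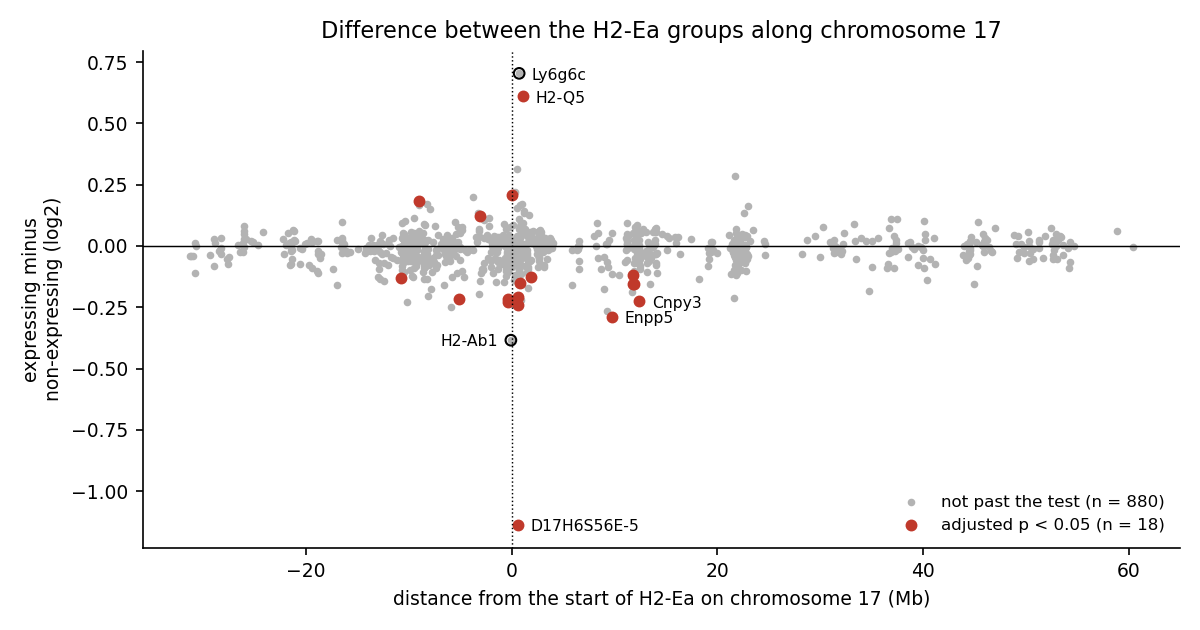
Difference in log2 value (expressing minus non-expressing) of the 898 genes of chromosome 17 against the distance of their start from that of H2-Ea in Mb; red points are the 18 genes past an adjusted p of 0.05, grey points the others, and open circles mark H2-Ab1 and Ly6g6c, which did not pass. The red points run from -10.79 to 12.39 Mb, with H2-Q5 at 0.61 and D17H6S56E-5 at -1.14.

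The 4 genes higher in expressing tumors all lay on chromosome 17. Distances are given from the start of H2-Ea, negative for genes before it on the chromosome. H2-Q5, a class I gene of the Q region 1.05 Mb from H2-Ea that the C57BL/6J reference also annotates as a transcribed pseudogene, had values of 7.96, 8.87 and 9.90 (lowest, median, highest) in expressing tumors, against 7.25, 8.19 and 9.27 in non-expressing tumors. Its difference was 0.61 ± 0.07 (SE; 1.53-fold, limma adjusted p = 1e-10), and 74 of the 76 expressing tumors lay above the non-expressing median. Btnl2, a butyrophilin-like protein that restrains T cells, starts 10.14 kb past the end of H2-Ea. It had values of 5.96, 6.45 and 7.04 in expressing tumors and of 5.87, 6.25 and 7.18 in non-expressing tumors. The difference of Btnl2 was 0.21 ± 0.03 (SE, limma adjusted p = 6.1e-06), with 62 of 76 expressing tumors above the non-expressing median. Both differences were positive in each of the 5 blocks. Neither was spread evenly over the expressing tumors, as described below with the levels of H2-Eb1.

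Farther off, Rsph1, a radial spoke protein of motile cilia at -3.09 Mb, was higher by 0.12 (limma adjusted p = 0.00092). Its non-expressing mean of 5.69 lay below the background level. Tpsab1, a mast cell tryptase at -9.00 Mb, had values of 5.66, 6.10 and 6.96 in expressing tumors, against 5.62, 5.92 and 6.95 in non-expressing tumors. Its difference was 0.18 ± 0.04 (SE, limma adjusted p = 0.023), and it was positive in all 5 blocks.

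Of the 16 genes lower in expressing tumors, the smallest p-values were those of Cnpy3, Pfdn6 and H2-Ke6. Cnpy3, a chaperone of Toll-like receptors 12.39 Mb past H2-Ea, had values of 9.06, 9.60 and 10.03 in expressing tumors, against 9.28, 9.81 and 10.31 in non-expressing tumors. Its difference was -0.23 ± 0.03 (SE, limma adjusted p = 2.5e-07), and 63 of the 76 expressing tumors lay below the non-expressing median. Pfdn6, a subunit of the prefoldin chaperone at -0.40 Mb, had 7.48, 7.95 and 8.69 in expressing tumors, against 7.30, 8.19 and 8.84 in non-expressing tumors. The difference of Pfdn6 was -0.23 ± 0.04 (SE, limma adjusted p = 5e-05), with 68 of the 76 expressing tumors below the non-expressing median. H2-Ke6, a hydroxysteroid dehydrogenase gene at -0.32 Mb, had 7.88, 8.98 and 9.61 in expressing tumors, against 7.999, 9.23 and 9.64 in non-expressing tumors, a difference of -0.22 ± 0.04 (SE, limma adjusted p = 0.00042). All 3 were lower in each block, and the groups overlapped over most of their ranges.

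Cnpy3 was not alone at its end of the region. Mrps18a, a protein of the mitochondrial ribosome, Gtpbp2, a GTPase that rescues stalled ribosomes, and Polr1c, a subunit of RNA polymerases I and III, lie 11.77 to 11.90 Mb past H2-Ea, with Mrps18a 0.625 Mb from Cnpy3. Mrps18a differed by -0.15 (limma adjusted p = 0.0013) and was below the non-expressing median in 67 of 76 expressing tumors. Polr1c differed by -0.15 (adjusted p = 0.02) and Gtpbp2 by -0.12 (adjusted p = 0.044). With a term for the block of animal numbers neither passed (limma adjusted p = 0.11 and 0.24). Enpp5, an ectonucleotide phosphodiesterase 9.74 Mb past H2-Ea, was at 8.01, 9.58 and 10.92 in expressing tumors, against 8.63, 9.87 and 10.69 in non-expressing tumors, with a difference of -0.29 (adjusted p = 0.037).

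Apart from D17H6S56E-5, described next, the other lower genes of chromosome 17 fell by 0.12 to 0.24 on the log2 scale. Within 2 Mb past H2-Ea these were Vars, the valyl-tRNA synthetase (-0.24, limma adjusted p = 0.028), Snord52, a small nucleolar RNA (-0.21, adjusted p = 0.0084), Gpank1, a protein with a G patch domain (-0.15, adjusted p = 0.022), and Rpp21, a subunit of ribonuclease P (-0.12, adjusted p = 0.0089). The mean of Snord52 lay at or below the background level in both groups. Before H2-Ea, Ppil1, a peptidyl-prolyl isomerase of the spliceosome, differed by -0.22 (adjusted p = 0.034) and Zfp213, a zinc finger protein, by -0.13 (adjusted p = 0.028). Off chromosome 17, Champ1 on chromosome 8, a zinc finger protein of chromosome alignment, and Ptrhd1 on chromosome 12 each differed by -0.13 (adjusted p = 0.012 and 0.02).

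The largest difference of the 20 was that of D17H6S56E-5, which had values of 7.29, 8.35 and 12.18 in expressing tumors, against 7.11, 10.85 and 12.34 in non-expressing tumors. Its difference was -1.14 ± 0.26 (SE; 2.20-fold lower, limma adjusted p = 0.022), and within the 5 blocks it ran from -2.52 to -0.29. The values formed 2 levels with no tumor between 9.10 and 9.77, a split seen only once the values were plotted. The high level was present in 16 of 76 expressing tumors (21.1%, exact 95% interval 12.5% to 31.9%), against 48 of 83 non-expressing tumors (57.8%, 46.5% to 68.6%). Vars starts just past the end of D17H6S56E-5 and followed its level inside both groups. The median of Vars was 9.88 in expressing tumors with the high level and 9.25 in those with the low level, and 9.87 and 9.23 in the corresponding non-expressing tumors. For Snord52, near background, the medians were 5.61 and 5.38 in expressing and 5.71 and 5.51 in non-expressing tumors. Not all genes past the test went this way: for H2-Q5 and Rpp21 the direction differed between the groups. None of this was tested.

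**Figure D3:**
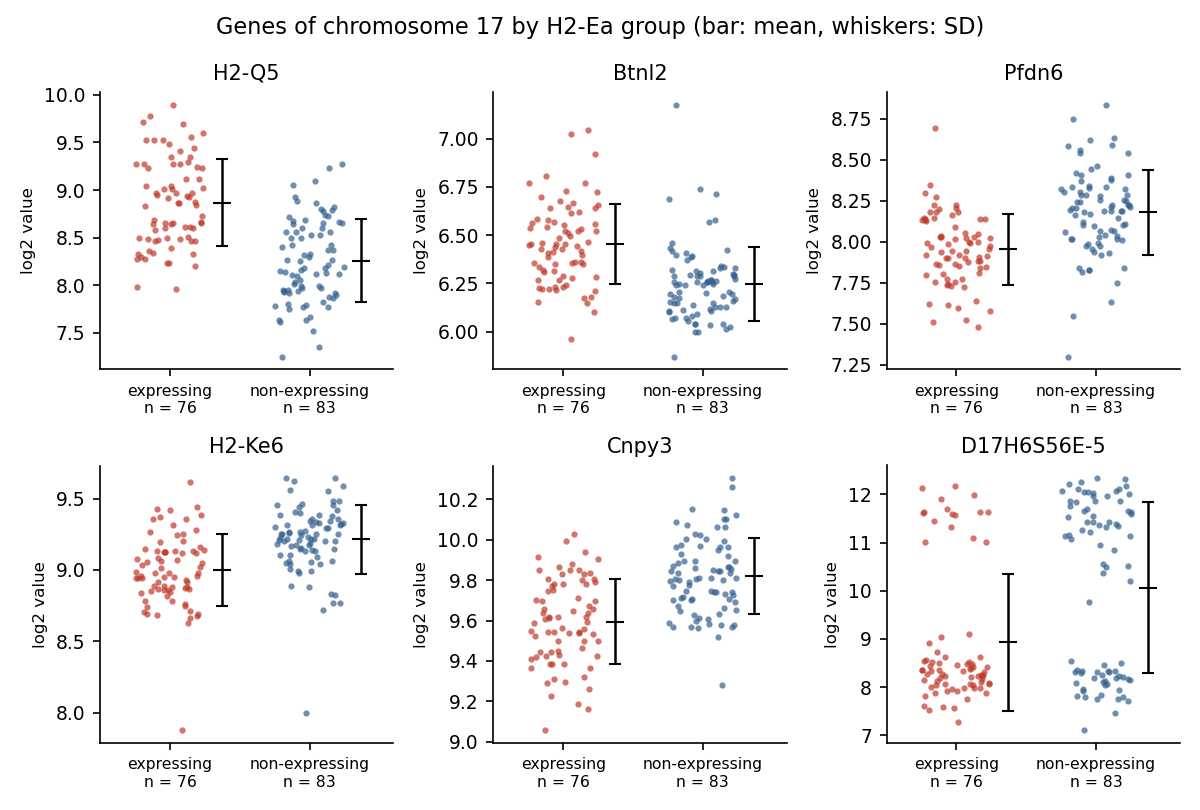
Log2 values of 6 genes of chromosome 17 in each of the 76 expressing (red, left) and 83 non-expressing (blue, right) tumors; points are tumors, spread sideways at random, with the mean and SD beside them. H2-Q5 and Btnl2 are higher and Pfdn6, H2-Ke6 and Cnpy3 lower in expressing tumors with wide overlap, and D17H6S56E-5 falls into 2 levels, the higher held by 16 of 76 expressing and 48 of 83 non-expressing tumors.

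Several choices moved the number of genes called. Leaving out 6 arrays with low correlation to the others, 3 of each group, gave 50 genes (7 higher and 43 lower), all 20 included. Leaving out the 9 tumors apart on the lymphoid scores gave 20 genes, 17 of them shared, and a term for the block of animal numbers gave 19, with 16 shared. Within single blocks 0 or 1 gene passed, and 17 of the 20 genes kept their sign in all 5 blocks; Rpp21, Ptrhd1 and Zfp213 did not.

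Among the other chains of class II molecules 0 of 4 passed the test and 1 had an unadjusted p under 0.05, against 0.106% and 8.8% of all genes. H2-Ab1, the beta chain of the A molecule, had values of 7.67, 9.51 and 10.90 in expressing tumors, against 7.47, 9.999 and 11.11 in non-expressing tumors. The difference was -0.38 ± 0.11 (SE, 95% interval -0.59 to -0.18), with an unadjusted p of 0.00036 and an adjusted p of 0.13 (limma). It was lower in 63 of 76 expressing tumors than the non-expressing median, and negative in all 5 blocks, from -0.79 to -0.18. Its call changed with the model: H2-Ab1 differed by -0.48 (limma adjusted p = 1.1e-06) with a score of macrophage and dendritic cell genes as a covariate and by -0.41 (adjusted p = 0.049) without the 6 low-correlation arrays. The macrophage list itself had no gene past the test, a median difference of 0.07 and 11 of 14 genes above 0.

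H2-Aa, the alpha chain that pairs with H2-Ab1, had values of 7.80, 9.90 and 11.35 in expressing tumors and of 7.49, 9.97 and 11.31 in non-expressing tumors. Its difference was 0.0060, with a 95% interval of -0.20 to 0.21. H2-Eb1, the partner of H2-Ea, had 6.36, 8.79 and 10.18 in expressing tumors, against 5.77, 8.94 and 10.66 in non-expressing tumors, a difference of -0.06 (interval -0.41 to 0.29). H2-Eb2, a second E beta gene, lay near background with medians of 5.60 in expressing and 5.63 in non-expressing tumors (difference -0.09, interval -0.25 to 0.08). Differences of H2-Aa, H2-Eb1 and H2-Eb2 changed sign under some of the alternatives.

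The genes that load and switch on class II molecules showed intervals around 0. Cd74, the invariant chain that guides class II molecules through the cell, was at 9.36, 11.16 and 12.59 in expressing tumors, against 8.79, 11.20 and 12.45 in non-expressing tumors (difference 0.05, interval -0.15 to 0.25). H2-DMa, a chain of the peptide-exchange factor DM, differed by 0.0058 (interval -0.16 to 0.17), H2-Oa, a chain of its inhibitor DO, by 0.0043 (-0.14 to 0.15) and Ciita by 0.0091 (-0.11 to 0.13). Of the processing enzymes, the protease Ctss differed by 0.11 (-0.04 to 0.26) and the thiol reductase Ifi30 by -0.06 (-0.14 to 0.01). Rfx5, Rfxap and Rfxank, which bind the X box, differed by -0.06, -0.03 and -0.02. In all 0 of 9 genes of loading and regulation passed the test and 0 of 9 had an unadjusted p under 0.05, against 0.106% and 8.8% of all genes.

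Within each group, H2-Ea varied with the other class II genes. Relations to 7 genes were computed in each group, 14 in all, with two-sided permutation p-values (100000 permutations, 1e-05 being the smallest they can give) adjusted over the 14. Over the 76 expressing tumors H2-Ea followed Cd74 (r = 0.775, rho = 0.739), H2-Ab1 (r = 0.71, rho = 0.69) and H2-Aa (r = 0.698, rho = 0.668), each with an adjusted p of 1.3e-05. It followed H2-DMa less closely (r = 0.562, rho = 0.537, adjusted p = 1.3e-05), then Ciita (r = 0.442, rho = 0.421, adjusted p = 5.8e-05) and H2-Oa (r = 0.372, rho = 0.294, adjusted p = 0.00069). Without the 2 tumors farthest from the median of H2-Ea the r was 0.749 for Cd74 and 0.364 for H2-Oa. Without the 4 tumors apart on the lymphoid scores the r of H2-Oa was 0.244 (adjusted p = 0.044). Inside the 5 blocks r lay between 0.709 and 0.896 for Cd74, between 0.672 and 0.844 for H2-Ab1, and between -0.346 and 0.728 for H2-Oa.

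In the 83 non-expressing tumors, with H2-Ea near background in most, the relations were also present. H2-Ea followed H2-DMa (r = 0.808, rho = 0.773) and Ciita (r = 0.769, rho = 0.592), then H2-Oa (r = 0.681, rho = 0.295), H2-Aa (r = 0.598, rho = 0.692), Cd74 (r = 0.58, rho = 0.711) and H2-Ab1 (r = 0.539, rho = 0.711), each with an adjusted p of 1.3e-05 for r. Without the 5 tumors apart on the lymphoid scores r was 0.671 for H2-DMa and 0.478 for Ciita, both still past the threshold (adjusted p = 2e-05). Inside the 5 blocks r was 0.698 to 0.96 for H2-DMa and 0.418 to 0.87 for Ciita. Without the tumors apart, the r of H2-Oa was 0.097 (adjusted p = 0.40), so it rested on those tumors. Whether these relations differ between the groups was not tested.

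Over all 76 expressing tumors H2-Ea followed H2-Eb1 with r = 0.618 (rho = 0.765, permutation adjusted p of r = 1.3e-05). Over all 83 non-expressing tumors r was 0.301 (rho = 0.504, adjusted p of r = 0.0055). Without the 5 tumors apart on the lymphoid scores it was 0.132 (adjusted p = 0.27). H2-Eb1 had 2 levels relative to H2-Aa, so its relation to H2-Ea is also given by level. The difference H2-Eb1 minus H2-Aa left a gap between -2.30 and -1.52, noticed after the values were plotted, and tumors below the gap are called the lower level. The lower level held 22 of 76 expressing tumors (28.9%, exact 95% interval 19.1% to 40.5%), with H2-Eb1 between 6.36 and 7.44. In non-expressing tumors it held 18 of 83 (21.7%, 13.4% to 32.1%), with H2-Eb1 between 5.77 and 7.67. Over the expressing tumors H2-Ea followed H2-Eb1 within the higher level (r = 0.875, rho = 0.891, n = 54) and within the lower level (r = 0.736, rho = 0.732, n = 22). The permutation p adjusted over the 4 relations was 2e-05 and 5.3e-05, and the r within blocks of at least 6 tumors was 0.884 to 0.984 and 0.821 to 0.891. Over non-expressing tumors r was 0.757 (rho = 0.861, n = 65, adjusted p = 2e-05) in the higher level. In the lower level r was -0.15 (rho = 0.288, n = 18, adjusted p = 0.52) and 0.761 without the 2 tumors farthest from the median of H2-Ea. The levels were cut on H2-Eb1 minus H2-Aa, and H2-Aa itself followed H2-Ea. The split can thus raise the r within a level, and the p-values by level are no independent test of the relation.

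At the lower level of H2-Eb1, but not at the higher, most tumors of the 2 groups had opposite levels of D17H6S56E-5. Of the 22 expressing tumors with the lower level of H2-Eb1, 0 had the high level of D17H6S56E-5 and 22 the low one, whereas of the 18 non-expressing tumors 17 had the high and 1 the low. That 1 tumor, animal 14790, had H2-Ea of 7.93, just under the threshold of 8.0, and the lowest H2-Eb1 of all tumors (5.77). It is also among the 2 tumors whose omission gave the r of 0.761 above. Of the tumors with H2-Ea between 7 and 8, it is the 1 not apart on the lymphoid scores. With the higher level of H2-Eb1, 16 expressing tumors had the high and 38 the low level of D17H6S56E-5, and 31 and 34 non-expressing tumors did. Most of the 22 expressing tumors with the lower level of H2-Eb1 lay below the expressing medians of Btnl2 (6.45) and H2-Q5 (8.87). Their Btnl2 values lay on both sides of the non-expressing median of 6.25, whereas for H2-Q5 most exceeded the non-expressing median of 8.19. These counts and comparisons were made after the values were seen and were not tested.

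**Figure D4:**
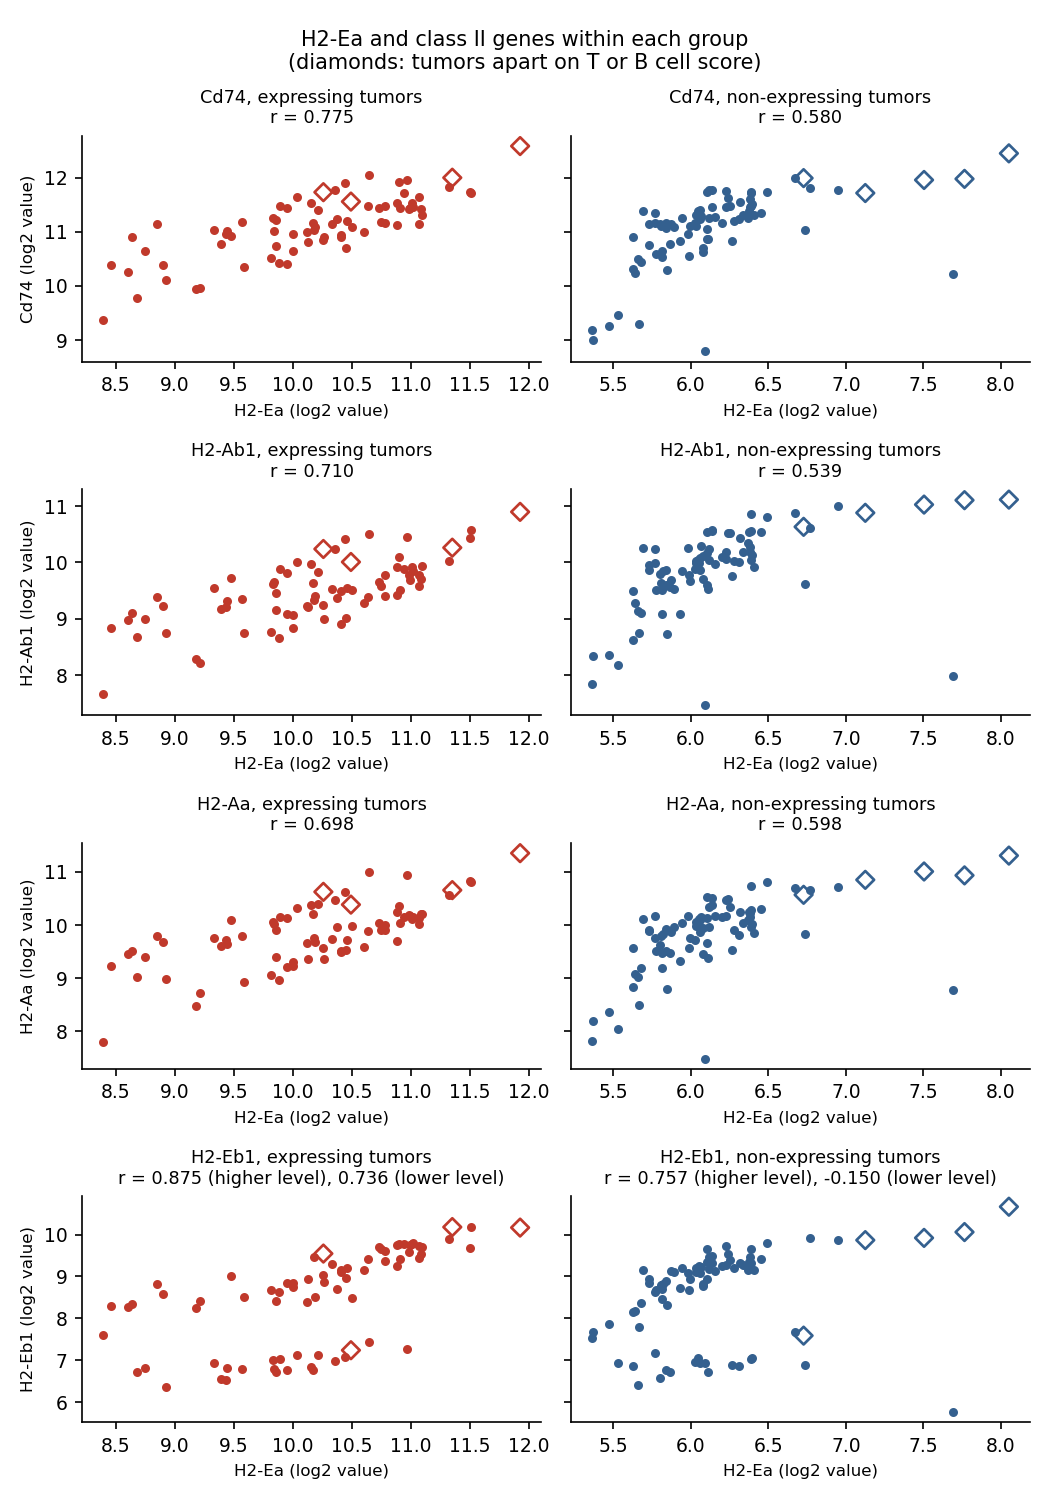
H2-Ea (log2 value, x axis) against Cd74, H2-Ab1, H2-Aa and H2-Eb1 (log2 value, y axis) in the 76 expressing (red, left) and 83 non-expressing (blue, right) tumors; diamonds are tumors apart on the T or B cell score. Cd74, H2-Ab1 and H2-Aa are higher where H2-Ea is higher in both groups, and H2-Eb1 falls into 2 bands, the lower of 22 expressing and 18 non-expressing tumors.

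The genes most like H2-Ea over the 76 expressing tumors, by the absolute correlation of log2 values among all genes, were Csf1r, the receptor for the macrophage growth factor CSF1 (r = 0.801), the lysosomal activator Gm2a (r = 0.78), Cd74 (r = 0.775), the myeloid signaling adaptor Tyrobp (r = 0.774) and Cybb, a subunit of the phagocyte oxidase (r = 0.767). The values of all genes come from the same arrays and share their scaling. Over the non-expressing tumors the same genes had r from 0.315 to 0.58, and without the 5 tumors apart on the lymphoid scores from 0.154 to 0.508, with Gm2a the lowest in both. Csf1r itself had values of 7.78, 9.22 and 10.201 in expressing tumors, against 7.84, 9.03 and 10.08 in non-expressing tumors (difference 0.13, interval -0.02 to 0.28, limma adjusted p = 0.61).

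Of the 14 measured genes of the class I heavy chain list, H2-Q5 was the 1 that passed (0.106% of all genes did). An unadjusted p under 0.05 was reached by 4 of 14 (8.8% of all genes), and the median difference of the list was 0.02. Other class I genes were measured outside the list, among them H2-K2 and H2-Bl, and did not pass. H2-Q10, a secreted class I molecule 1.13 Mb from H2-Ea, differed by 0.09 (limma adjusted p = 0.15), and H2-M5, a class I gene of the M region, by 0.06 (adjusted p = 0.40). The classical chains H2-K1 and H2-D1 share probe sets with other genes and are not named. Genes of the Q region are near copies of each other, and how far the probes of H2-Q5 also measure its neighbours was not tested. Among the complement genes of the H2 region, Cfb, complement factor B, differed by 0.31 (interval 0.05 to 0.58, adjusted p = 0.48), and 0 of 4 passed. Ly6g6c, a surface protein of the Ly6 family 0.73 Mb from H2-Ea, is named because of its place in the plot of differences along the chromosome. It had values of 6.37, 7.72 and 13.20 in expressing tumors, against 6.15, 6.92 and 12.16 in non-expressing tumors (difference 0.70 ± 0.19, SE, limma adjusted p = 0.10), and 66 of 76 expressing tumors lay above the non-expressing median.

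Since class II molecules present to CD4 T cells, T cell genes were examined as a group. Of 31 measured genes of the CD4 T cell list 0 passed the test, with a median difference of 0.0018, and 2 had an unadjusted p under 0.05. Of 15 general T cell genes 0 passed (median -0.02), and of 16 CD8 T cell and cytotoxic genes 0 passed (median -0.0078). Over all genes tested 0.106% passed and 8.8% had an unadjusted p under 0.05.

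Cd4, the coreceptor that binds class II molecules, had values of 5.92, 6.32 and 10.16 in expressing tumors, against 5.77, 6.24 and 10.45 in non-expressing tumors. Its difference was 0.06, with a 95% interval of -0.14 to 0.27 (limma adjusted p = 0.89). Cd3e, a chain of the T cell receptor complex, had 6.49, 7.28 and 11.40 in expressing tumors and 6.59, 7.18 and 11.81 in non-expressing tumors (difference 0.04, interval -0.19 to 0.27). For both genes the groups overlapped over nearly the whole range, and the sign of the difference changed with the myeloid score as a covariate.

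Members of these lists with the widest differences also stayed short of the threshold. Ubash3a, a suppressor of T cell receptor signaling at -3.13 Mb, differed by -0.19 (interval -0.34 to -0.05, limma adjusted p = 0.38), Bcl11b, a transcription factor of T cell identity, by -0.06 and the receptor chain Cd247 by 0.06. In the CD4 list S1pr1, which lets lymphocytes leave lymph nodes, differed by 0.11 (interval -0.06 to 0.28), the factor Ikzf2 of regulatory T cells by -0.09 (-0.19 to 0.01) and Maf, a factor of helper T cells and macrophages, by 0.08 (-0.11 to 0.26). Among cytotoxic genes Eomes differed by -0.05, the granzyme Gzma by -0.04 and the coreceptor chain Cd8b1 by -0.04. T cell receptor V beta genes of the lists had 0 members measured with a symbol of their own.

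Other cell types gave 0 genes past the test in each list, against 0.106% of all genes tested. An unadjusted p under 0.05 was reached by 2 of 16 dendritic cell and 0 of 14 macrophage genes. For B cell and plasma cell genes it was 0 of 17, and over all genes 8.8%. Epithelial genes marked both groups as mammary epithelium, with Epcam at a median of 10.72 in expressing and 10.75 in non-expressing tumors and Krt8 at 12.39 and 12.43. The median difference was 0.05 over 16 dendritic cell genes, 0.07 over 14 macrophage genes and -0.0006 over 17 B cell and plasma cell genes. Cd209a, a lectin of dendritic cells, differed by 0.29 (interval 0.05 to 0.53, limma adjusted p = 0.47) and Zbtb46, a dendritic cell factor, by 0.06 (adjusted p = 0.51). The macrophage genes Cd163 and Adgre1 differed by 0.22 (interval -0.02 to 0.46) and 0.16 (-0.0002 to 0.32). Adgre1 is itself on chromosome 17, 23.02 Mb past H2-Ea, and 3 of the 14 macrophage genes had negative differences.

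**Figure D5:**
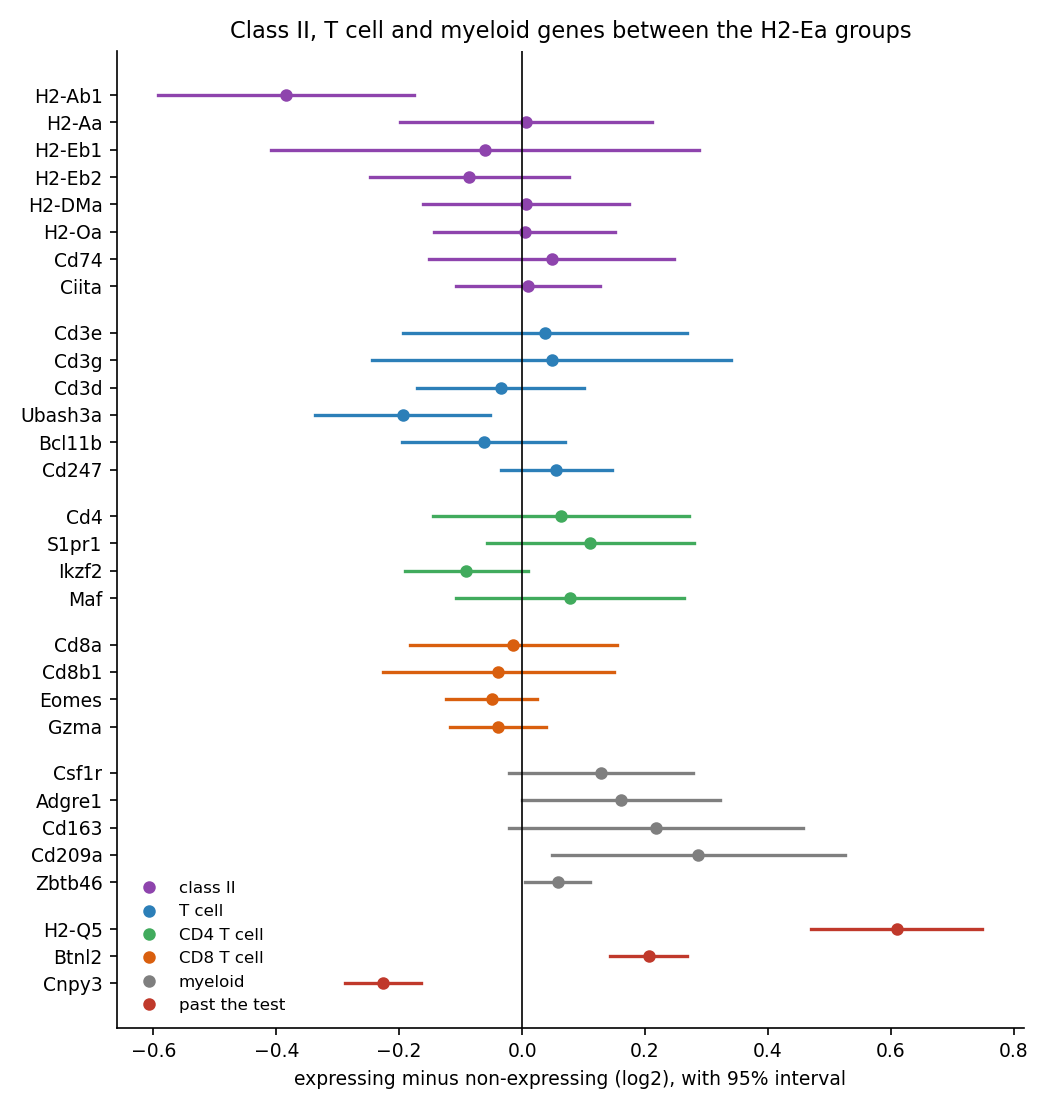
Difference in log2 value (expressing minus non-expressing, points) with its 95% interval (lines) for class II, T cell, CD4 T cell, CD8 T cell and myeloid genes, and for 3 genes past the test for scale. The intervals of Cd4, Cd3e, H2-Aa, H2-Eb1 and Cd74 include 0, and those of H2-Ab1, Ubash3a, Cd209a and Zbtb46 do not although their adjusted p stayed over 0.05.

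Stromal and some other lists leaned to one side without a gene past the test (0.106% of all genes passed). All 12 fibroblast and matrix genes had positive differences (median 0.14), as had 10 of 10 endothelial (0.07) and 10 of 11 adipocyte genes (0.24). So had 8 of 8 skeletal muscle, 12 of 14 proliferation and 14 of 16 dendritic cell genes, but only 4 of 12 epithelial genes. Over all genes 9537 of 18953 differences were positive. Pdgfrb, a receptor of fibroblasts and pericytes, differed by 0.12 (limma adjusted p = 0.56). The interferon response list had a median of 0.13 with 14 of 16 genes above 0, while its member Irf1, an interferon-induced transcription factor, differed by -0.10 (adjusted p = 0.52). Mki67, a marker of cycling cells, differed by 0.17 (interval 0.04 to 0.30, adjusted p = 0.40), and 53 of 76 expressing tumors lay above the non-expressing median. It was the 1 of 14 proliferation genes with an unadjusted p under 0.05 (8.8% of all genes), and the median difference of that list was 0.05. Members of a list vary together across tumors, so a count of signs is not a count of independent observations.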

How the data were processed

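RNA of 159 tumors was hybridised to Affymetrix mouse ST arrays, 1 per animal. Per the paper's methods the authors brought all arrays to the median array in BRB ArrayTools and made no batch correction. They deposited log2 values, which run from 3.47 to 13.88; how probes were corrected and summarized is not given in the sources read. Here each array was again aligned to the median array by its median offset. The platform annotation pairs 18965 of the 20718 probe sets with 1 symbol, 688 with several and 1065 with none. Only the first kind was named, and for a gene with several probe sets the one with the highest mean was kept (18954 genes). Strain differences in the sequence under the probes can alter array values and were not tested.

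Groups were set by the deposited H2-Ea value and compared with limma 3.58.1 in R 4.3.3 (lmFit, eBayes), with Benjamini-Hochberg adjustment over 18953 genes at 0.05. The fit was also run on simulated data in which genes varied independently, unlike the linked and co-varying genes of these tumors. The labels do not identify related animals, and p-values take the tumors as independent. The members, gene lists and tests were chosen with earlier results of these data known. Genes named were all genes past the test, the measured class II genes, Cd4, members of the T cell lists with the widest differences, members of other lists with the smallest p and the 5 genes most correlated with H2-Ea. Cd3e, Epcam and Krt8 are cell type markers, and Ly6g6c was added after its values were seen. Tables, permutations (numpy 2.4.6) and plots were made in Python 3.11.15 with pandas 2.3.3, scipy 1.17.1 and matplotlib 3.10.9. Alternatives covered the scaling (none beyond the deposited one, or quantile), the choice of probe set by variance, low-correlation arrays (median r down to 0.895, against 0.975 for the typical array), tumors apart on lymphoid scores, blocks of animal numbers, H2-Ea thresholds of 7.5 and 8.5, tumors between 7 and 9, myeloid and T cell scores as covariates, genes above background, eBayes with trend and robust, and an adjusted p of 0.01. The split by H2-Eb1 level was added after the values were seen. The number of arrays limits the precision. Metastasis and survival were not analysed here.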

Additional observations from a re-analysis of the deposited data

How the results depend on the processing

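All 20 genes past the test kept their direction in every alternative over all blocks, apart from the 2 dim ones not tested among genes above background, and 10 of them missed an adjusted p of 0.05 in at least 1 of these. Those 10 were Rpp21, Champ1, Ptrhd1, Polr1c, Tpsab1, Vars, Zfp213, Ppil1, Enpp5 and Gtpbp2. At the stricter adjusted p of 0.01, 9 of the 20 passed. The cause of each change below was not tested, except that single blocks hold fewer tumors. Against 4 genes higher, 16 lower, 18 on chromosome 17 and 9 within 2 Mb, leaving out low-correlation arrays gave 7, 43, 29 and 15, leaving out tumors with H2-Ea between 7 and 9 gave 11 higher and 29 lower, quantile normalization gave 9 lower, a threshold of 7.5 gave 10 lower, and an adjusted p of 0.01 gave 6 lower and 9 on chromosome 17. Among class II chains 1 gene (H2-Ab1) passed without the low-correlation arrays and 1 with the myeloid score. Within single blocks the counts higher, lower, on chromosome 17, within 2 Mb and among class I genes were 0, except 1 higher gene in animals 14902 to 14959, the class I gene H2-Q5 on chromosome 17 and within 2 Mb.

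Over both levels of H2-Eb1 its relation to H2-Ea had r of 0.618 in expressing tumors. In non-expressing tumors it had r of 0.301, against 0.132 without the tumors apart on lymphoid scores, 0.196 at a threshold of 8.5 and -0.15 in the lower level, and that to H2-Oa 0.097 without the tumors apart. The other relations stayed past the threshold.

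Some differences changed sign, all but 3 of them in genes that had not passed. Within animals 14540 to 14597 these were Rpp21 (0.0022), Zfp213 (0.032), H2-Aa (-0.39), H2-DMa (-0.17), H2-Oa (-0.39), Cd74 (-0.15), Ciita (-0.25), Ctss (-0.11), Rfxap (0.051), Cd4 (-0.61), S1pr1 (-0.058), Bcl11b (0.0011), Cd247 (-0.14), Cfb (-0.040) and Cd3e (-0.63). Within animals 14601 to 14648 they were Ptrhd1 (0.026), H2-Aa (-0.19), H2-Eb1 (0.78), H2-DMa (-0.18), H2-Oa (-0.18), Cd74 (-0.22), Ciita (-0.15), Ifi30 (0.021), Rfxap (0.059), Cd4 (-0.22), Cd247 (-0.041), Eomes (0.010), Gzma (0.095), H2-M5 (-0.0050), Pdgfrb (-0.11) and Cd3e (-0.31). Within animals 14718 to 14799 they were Rfx5 (0.026) and Gzma (0.054). Within animals 14800 to 14897 they were H2-Aa (-0.16), H2-Eb2 (0.12), H2-DMa (-0.14), Cd74 (-0.018), Rfxank (0.044), Ikzf2 (0.024), Maf (-0.30), Ubash3a (0.21), Bcl11b (0.044), Eomes (0.098) and Cd8b1 (0.43), and within animals 14902 to 14959 H2-Eb1 (0.43), Rfx5 (0.046), Rfxank (0.12), Cd8b1 (0.0021), Zbtb46 (-0.022) and Irf1 (0.089).

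Over all blocks, the myeloid score turned H2-Aa (-0.092), H2-DMa (-0.080), H2-Oa (-0.054), Cd74 (-0.045), Ciita (-0.044), Cd4 (-0.035), Maf (-0.0041) and Cd3e (-0.067), and the term for blocks H2-Aa (-0.055), H2-DMa (-0.058), H2-Oa (-0.020), Ciita (-0.024) and Cd3e (-0.037). Leaving out low-correlation arrays turned H2-Aa (-0.023) and H2-DMa (-0.025), leaving out tumors apart on lymphoid scores Cd8b1 (0.011), and leaving out tumors between 7 and 9 H2-Eb1 (0.084), H2-Eb2 (0.052) and Cd8b1 (0.12). The threshold of 7.5 turned H2-Eb2 (0.061), Bcl11b (0.0035), Eomes (0.015) and Cd8b1 (0.12), and quantile normalization H2-Oa (-0.017) and Ciita (-0.0020). No paired analysis was possible because the tumors form 1 labelled group of unpaired animals.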
